A study of Mus musculus with 6 samples.

Results

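The 10 genes described here encode AEG-1 (*Mtdh*), its partner SND1 (*Snd1*) and the core proteins that make microRNAs and carry them in the RNA-induced silencing complex (RISC). The core genes are *Drosha*, *Dicer1*, *Tarbp2*, *Prkra* and the 4 Argonautes, *Ago1* to *Ago4*. They were chosen by symbol, with no threshold on a measured value, though earlier results of these data were known, and all 10 were found among the 55487 gene rows of the count tables. All 10 passed the filter on low counts that left 12741 genes for testing.

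The libraries were RNA sequencing of hepatocytes, the parenchymal cells of the liver, from mice 6 to 8 weeks old. There were 3 libraries from mice homozygous for AEG-1-C75S and 3 from wild-type (WT) mice, both obtained by mating heterozygotes, and RNA was taken 48 h after the cells were isolated. All 6 libraries carry the treatment label Control and the same time after isolation, and the labels of the groups differ in genotype alone. Whether the cells of both groups were isolated together is not stated in them. The labels used here give no strain or sex and do not tie each library to an animal of its own. Here n is a number of libraries, and p-values measure the spread between them, which may be technical. No promoter or Cre is named for the allele. The comparison asks whether the transcripts of AEG-1 and of the silencing machinery differ in level when cysteine 75 of AEG-1 is replaced by serine.

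A microRNA is cut from its primary transcript in the nucleus by Drosha, exported, and cut again in the cytoplasm by Dicer, which works with the double-stranded RNA binding proteins TRBP (*Tarbp2*) and PACT (*Prkra*). A strand of the product is loaded into an Argonaute protein, which then represses or cleaves matching messenger RNAs. SND1 is a nuclease described as a subunit of RISC, and AEG-1, a membrane protein of the endoplasmic reticulum known for its role in liver cancer, binds SND1 and has been described in the same complex.

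The deposited tables count reads per gene and do not read the edited codon of *Mtdh*, so the level of *Mtdh* does not check the genotype labels.

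The libraries held 16944723 to 21044292 counts on genes, C75S replicate 1 having the fewest. A count of 3, used as the floor of detection, corresponded to 0.142 to 0.172 CPM (a gene's count relative to its library's total, with totals scaled by the TMM method), for counting error only. Each of 10 hepatocyte markers was tested, and their summed level was 68187 to 81115 CPM in C75S against 76082 to 83762 CPM in WT. *Fgb* and *Cyp2e1* were the 2 called members, both higher in C75S. Over all tested genes 1.74% were called as higher in C75S and 1.37% as lower. Of 10 Kupffer cell and macrophage markers, 9 were under 1 CPM in every library, among them *Clec4f*, *Vsig4* and *Adgre1*. The 10 summed to 2.18 to 2.58 CPM in C75S against 1.84 to 3.51 CPM in WT. All 4 lymphocyte markers were under 1 CPM, with *Cd3e* and *Nkg7* at 0. The 8 endothelial markers summed to 34.3 to 44 CPM in C75S against 33.7 to 43.2 CPM in WT, and the 8 stellate cell markers to 53.7 to 70.6 and 68.7 to 91.7 CPM. Of these, 1 endothelial and 5 stellate cell markers were under 1 CPM, *Lrat* and *Des* among the latter. The 8 cholangiocyte markers were at 144 to 197 CPM in C75S against 122 to 134 CPM in WT, with *Krt19* called as higher and 4 of the 8 under 1 CPM. The part of these markers in the values below was not tested. In such bulk samples fewer cells of a type and less RNA per cell cannot be told apart.

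None of the 10 genes differed between C75S and WT by edgeR's quasi-likelihood test at a Benjamini-Hochberg adjusted p under 0.05, the threshold used throughout. Over all genes 3.11% were called, 396 of 12741, of which 222 were higher in C75S (1.74%) and 174 lower (1.37%). The count was also 0 with DESeq2, which called 3.04% of all genes, and with limma-voom, which called 2.99%. At an unadjusted p under 0.05 it was again 0, against 13.4% of all genes. The smallest of the 10 p-values was 0.231, that of *Tarbp2* (adjusted p = 0.659 in edgeR). The genotypes overlapped in all 10 genes, while 18% of the tested genes had no overlap. Against a background of 3.11%, 0 calls among 10 genes do not set them apart from other genes.

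The log2 fold changes of C75S against WT ran from -0.178 for *Tarbp2* to 0.104 for *Ago4*. Their median was -0.015, with 4 above and 6 below 0, and the median size was 0.030. Over all tested genes the median was -0.003 and the median size 0.088. The median standard error was 0.067 over the 10 genes and 0.091 over all genes. The absence of a call leaves a range of possible changes for each gene, which is given below as a 95% interval of the C75S to WT ratio. Gene positions are those of the annotation GENCODE M21 on the build GRCm38.

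**Figure D1:**
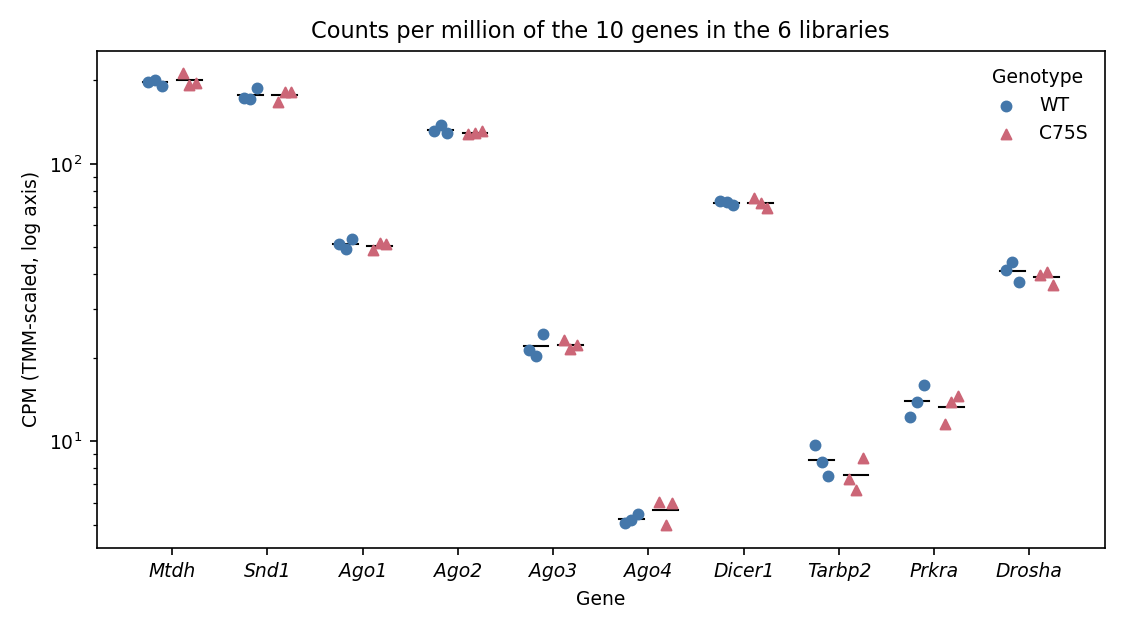
TMM-scaled CPM (log axis) of the 10 genes in each of the 6 libraries, with circles for WT, triangles for C75S and a line at each group's mean. The genotypes overlap in every gene, from *Mtdh* at 191 to 212 CPM down to *Ago4* at 4.98 to 6.03 CPM.

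*Mtdh* (ENSMUSG00000022255, chromosome 15, 34082694 to 34145624, plus strand) encodes AEG-1 itself. It had 3655 to 4176 counts per library. The C75S libraries were at 212, 192 and 196 CPM, and the WT libraries at 198, 201 and 191 CPM. C75S replicate 1 was above every WT library and the other two C75S libraries lay within the WT range. The ratio of C75S to WT was 1.02, with an interval of 0.944 to 1.09 (log2 fold change 0.02, SE 0.05, edgeR adjusted p = 0.909).

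*Snd1* (ENSMUSG00000001424, chromosome 6, 28475139 to 28935162, plus strand) encodes the nuclease partner of AEG-1. Its values were 167, 182 and 181 CPM in C75S and 173, 171 and 187 CPM in WT. The lowest value was that of C75S replicate 1 and the highest that of WT replicate 3, and the means were 177 ± 8.49 CPM and 177 ± 9.08 CPM (SD, n = 3 each). The interval of the ratio was 0.928 to 1.08 (log2 fold change 0.00, SE 0.05, edgeR adjusted p = 0.999).

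The balance of the partners was compared as the ratio of *Mtdh* to *Snd1* counts, each divided by the length of the gene's merged exons. It was 0.805, 0.670 and 0.685 in the C75S libraries and 0.731, 0.747 and 0.648 in the WT libraries. C75S replicate 1, with the highest *Mtdh* and the lowest *Snd1*, had the highest ratio. The mean was 0.720 ± 0.0741 for C75S against 0.709 ± 0.0532 for WT (SD, n = 3 each). An exact permutation test, two-sided, gave p = 0.9, where 3 against 3 cannot go below 0.1. On the log2 scale the difference of 0.021 turned to -0.062 without C75S replicate 1 and to -0.042 without WT replicate 3.

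*Drosha* (ENSMUSG00000022191, chromosome 15, 12824815 to 12935291, plus strand) encodes the nuclear enzyme of the Microprocessor. It was measured at 39.6, 40.8 and 36.5 CPM in C75S and 41.6, 44.1 and 37.6 CPM in WT. The means differed by less than the spread between libraries, at 39.0 ± 2.25 and 41.1 ± 3.31 CPM (SD, n = 3 each). The ratio was 0.949 with an interval of 0.855 to 1.05 (log2 fold change -0.08, SE 0.07, edgeR adjusted p = 0.725).

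*Dicer1* (ENSMUSG00000041415, chromosome 12, 104687742 to 104751952, minus strand), which encodes the cytoplasmic processing enzyme, was at 75.2, 72.0 and 69.1 CPM in C75S and 73.4, 72.8 and 71.2 CPM in WT. All WT libraries lay inside the C75S range. The log2 fold change was -0.01 (SE 0.06, edgeR adjusted p = 0.973) and the interval of the ratio 0.919 to 1.08. Of the 10 genes *Dicer1* varied least over the 6 libraries, with a coefficient of variation of 2.88%, close to the 2.64% that counting alone gives at its depth.

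The Dicer partners had few counts, though per length the mean level of *Prkra* was above that of *Dicer1*. *Tarbp2* (ENSMUSG00000023051, chromosome 15, 102518192 to 102523676, plus strand) had 127 to 204 counts per library. It was at 7.29, 6.69 and 8.72 CPM in C75S and 9.69, 8.43 and 7.52 CPM in WT, so that C75S replicate 3 exceeded WT replicates 2 and 3. The ratio was 0.884, with an interval from 0.718 to 1.09 (log2 fold change -0.18, SE 0.15). *Tarbp2* varied most of the 10 genes, with a coefficient of variation of 13.6% against 7.89% from counting. Of the 50-base stretches in its longest transcript 11.7% also occur in transcripts of other genes, most often *Gm18584*. How many *Tarbp2* reads this touched was not tested.

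*Prkra* (ENSMUSG00000002731, chromosome 2, 76629898 to 76648015, minus strand), known also as an activator of the kinase PKR, was at 11.5, 13.9 and 14.5 CPM in C75S and 12.2, 13.9 and 15.9 CPM in WT. Both genotypes held a low and a high library. The ratio was 0.953 with an interval of 0.806 to 1.13 (log2 fold change -0.07, SE 0.12, edgeR adjusted p = 0.865).

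**Figure D2:**
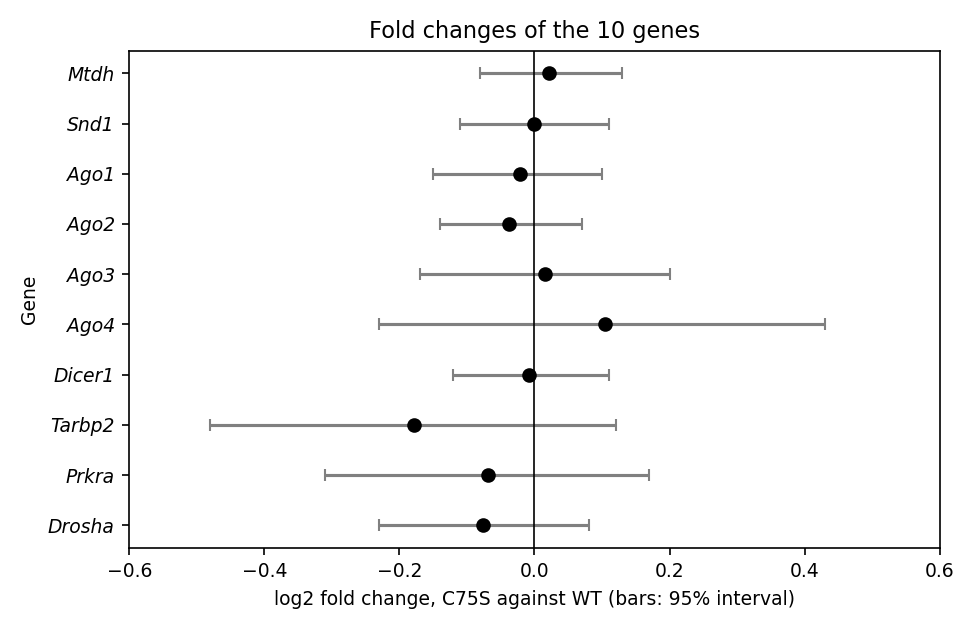
Log2 fold change of C75S against WT for each of the 10 genes, with points for edgeR's estimate and bars for its 95% interval. Every interval includes 0, and the widest are those of *Ago4* (-0.23 to 0.43) and *Tarbp2* (-0.48 to 0.12).

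Among the Argonautes, *Ago2*, the member known for cleaving its targets, was the most abundant. *Ago2* (ENSMUSG00000036698, chromosome 15, 73095844 to 73184935, minus strand) was at 128, 129 and 131 CPM in C75S and 131, 138 and 129 CPM in WT. WT replicate 2 stood above the other 5 libraries, which lay within 128 to 131 CPM. The ratio was 0.975 with an interval of 0.908 to 1.05 (log2 fold change -0.04, SE 0.05, edgeR adjusted p = 0.823).

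*Ago1*, *Ago3* and *Ago4*, which load microRNAs as *Ago2* does, lie next to each other on the minus strand of chromosome 4. *Ago3* (ENSMUSG00000028842, 126331704 to 126429556) is separated from *Ago1* (ENSMUSG00000041530, 126435012 to 126468583) by 5.46 kb, and *Ago1* from *Ago4* (ENSMUSG00000042500, 126489541 to 126533472) by 21 kb. *Ago1* was at 49.1, 51.7 and 51.4 CPM in C75S and 51.5, 49.4 and 53.7 CPM in WT, with a ratio of 0.985 (interval 0.902 to 1.07). *Ago3* was at 23.1, 21.5 and 22.2 CPM in C75S and 21.3, 20.3 and 24.4 CPM in WT, with a ratio of 1.01 (interval 0.889 to 1.15). In both genes WT replicate 3 was the highest of the 6 libraries. *Ago4* was at 6.03, 4.98 and 5.99 CPM in C75S and 5.08, 5.21 and 5.48 CPM in WT. C75S replicates 1 and 3 exceeded every WT library and C75S replicate 2 lay under all of them. With 105 to 113 counts per library *Ago4* had the widest interval of the Argonautes, 0.854 to 1.35, and its coefficient of variation of 8.35% was below the 9.62% that counting alone gives.

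The make-up of the Argonaute pool was compared from counts divided by merged exon length. *Ago2* supplied 52.2%, 52.3% and 52.4% of the 4 genes' total in C75S and 52.7%, 55.1% and 50.8% in WT. *Ago1* supplied 35.4% ± 0.748 in C75S against 35.5% ± 1.40 in WT (SD, n = 3 each). *Ago3* made up 7.63% ± 0.344 and 7.43% ± 0.674, and *Ago4* 4.63% ± 0.481 and 4.23% ± 0.126. The genotypes overlapped in every share (exact permutation test, two-sided, p of 0.4 to 1, adjusted p of 0.933 to 1 over the 4 shares). With 3 against 3 libraries this test cannot go below 0.1, so it could not have called a share at the threshold used. The summed level of the 4 genes was 17.4, 17.6 and 17.9 RPKM (TMM-scaled CPM per kilobase of merged exons) in C75S and 17.7, 17.9 and 18 RPKM in WT.

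**Figure D3:**
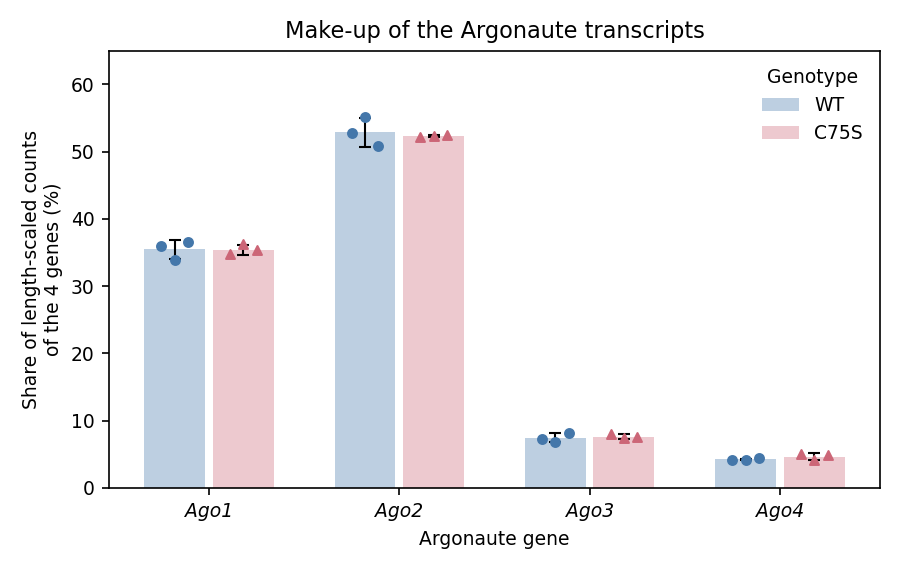
Share of each Argonaute in the summed length-scaled counts of the 4 genes, with bars for the mean of 3 libraries, error bars for the SD and points for single libraries. *Ago2* and *Ago1* make up most of the pool in both genotypes, and the genotypes overlap in every share.

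Levels can be ranked across genes only per length. Over the 6 libraries the order in RPKM was *Snd1* (18.1 ± 0.806), *Mtdh* (12.9 ± 0.494), *Ago2* (9.34 ± 0.280), *Drosha* (6.75 ± 0.469), *Prkra* (6.73 ± 0.774), *Ago1* (6.29 ± 0.207), *Dicer1* (4.31 ± 0.124), *Tarbp2* (1.77 ± 0.240), *Ago3* (1.34 ± 0.0876) and *Ago4* (0.786 ± 0.0657; mean ± SD, n = 6). Neighbours in this order whose values overlapped were *Drosha* and *Prkra*, *Prkra* and *Ago1*, and *Tarbp2* and *Ago3*. *Snd1* was above 80.6% of the tested genes and *Ago4* above 17%.

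The length used moved these levels, because merged exons span more bases than the longest transcript. How often each exon is used was not measured. Merged exons of *Mtdh* span 15347 bases while its longest transcript has 6919, and those of *Snd1* 9757 against 3781. Per longest transcript *Snd1* was at 46.8 ± 2.08 and *Mtdh* at 28.7 ± 1.10 RPKM, and the ratio of *Mtdh* to *Snd1* was 0.614 in place of 0.720 in C75S and 0.709 in WT. *Dicer1* then came before *Ago1*, at 7.34 ± 0.211 and 7.07 ± 0.233 RPKM, and these overlapped, as did *Prkra* and *Dicer1*, *Drosha* and *Prkra*, and *Ago2* and *Drosha*. By mean level *Snd1*, *Mtdh* and *Ago2* came first and *Tarbp2*, *Ago3* and *Ago4* last by either length.

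Of the 10 genes 4 lie on chromosome 15. *Drosha* is 21.1 Mb, *Ago2* 39.0 Mb and *Tarbp2* 68.4 Mb from *Mtdh*. Genes close to a targeted locus tend to be inherited with the edited allele, so those around *Mtdh* were examined. Within 5 Mb on either side 38 other genes were tested and 1 was called (2.63%), against 19 of 452 (4.2%) on the rest of the chromosome and 3.11% over all genes. The called gene was *Dap* (chromosome 15, 31224314 to 31274341), a death-associated protein gene 2808 kb from *Mtdh*. It rose from 146, 149 and 146 CPM in WT to 171, 177 and 183 CPM in C75S, without overlap (log2 fold change 0.27, SE 0.05, edgeR adjusted p = 0.0014). The highest adjusted p-value of *Dap* over 15 alternative fits was 0.0131.

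The nearest tested genes on either side were *Tspyl5*, 395 kb away, and *Laptm4b*, a lysosomal membrane protein gene 92.4 kb away. *Laptm4b* was at 38.1 ± 1.15 CPM in C75S against 36.9 ± 0.367 CPM in WT (SD, n = 3 each; log2 fold change 0.05, edgeR adjusted p = 0.835). *Tspyl5* was at 0.292 to 1.42 CPM, with a log2 fold change of -0.05 (SE 0.48). Neither differed beyond its error. In a window of 10 Mb there were 52 tested genes and 4 calls (7.69%), and in one of 2 Mb 13 and 0. Of those 13 genes 1 had an unadjusted p under 0.05, where 13.4% of all tested genes did.

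**Figure D4:**
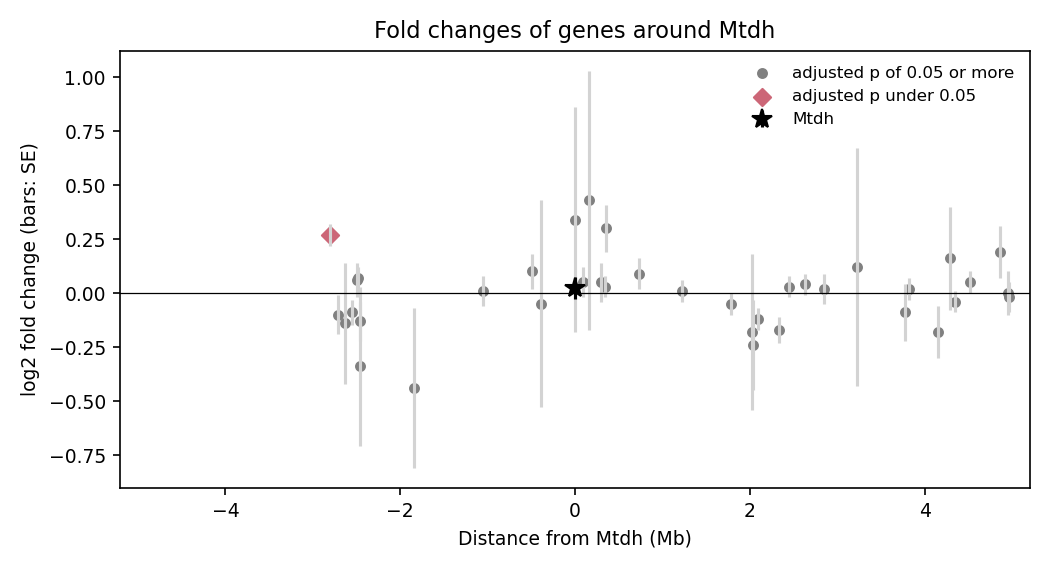
Log2 fold change of C75S against WT (bars are the SE) of the 38 tested genes within 5 Mb of *Mtdh*, by distance from *Mtdh* in Mb. *Dap*, the diamond at the left, is the 1 gene with an adjusted p under 0.05, and *Mtdh* is the star at 0.

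Genes that overlap the 10 in position were checked for reads they could share. The exons of *Mtdh* share 0 bases with *9930017N22Rik*, which lies in an intron on the same strand and had 65 counts over the 6 libraries beside 23631 of *Mtdh*. *Lrrc4*, a gene inside an intron of *Snd1* on the opposite strand, had 0 counts. Exons of *Ago2* overlap *Chrac1*, on the opposite strand, by 219 bases, and counting without regard to strand lowered the *Ago2* total by 1.46%. On the same strand, 72 bases of *Drosha* exons (1.21%) overlap the microRNA gene *Gm47288*, which had 0 counts.

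Counts on the opposite strand were 49 for *Mtdh* over the 6 libraries, 0.207% of its reads, and 20 for *Ago2* (0.128%). They were 0 for *Ago4* and *Prkra*, and the highest share was 0.926% for *Tarbp2*. Over all genes 2.91% of counts were on the opposite strand. *Ago1* and *Ago3* share 1.74% and 0.778% of their 50-base stretches with other genes.

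The 6-library profile of *Mtdh* was set beside those of 9388 other named genes with a mean of at least 5 CPM. The smallest root mean square differences in centred log2 CPM were those of *Atad1* (0.015), *Hbs1l* (0.015) and *H2afy* (0.018). The median over these genes was 0.1. *Mtdh* itself varied little, with a coefficient of variation of 3.83%, against 1.59% from counting alone. What its likeness to these 3 genes rests on was not tested.

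The remaining genes of the pathway were followed in 10 lists of 107 genes, of which 98 could be tested. Of these, 1 was higher and 2 were lower in C75S, 3.06% against 3.11% of all genes. Their median log2 fold change was -0.019, beside -0.003 for all tested genes. The 3 called genes were *Ran*, *Fkbp5* and *Cdkn1a*.

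In the list of Microprocessor and nuclear export genes 1 of 8 rose and 0 fell, with 3.11% called over all genes. The gene that rose was *Ran*, the GTPase that drives exportin-5 and nuclear transport in general. It was at 93.5, 86.2 and 87.5 CPM in C75S and 79.8, 75.5 and 75.8 CPM in WT, without overlap (log2 fold change 0.21, SE 0.05, edgeR adjusted p = 0.0314). The call was lost when any 1 of 4 libraries was left out, while the log2 fold change stayed at 0.173 to 0.221: edgeR's adjusted p was 0.184 or 0.0641 when replicate 1 or 3 of C75S was left out, and 0.16 or 0.11 when replicate 2 or 3 of WT was. Of its 50-base stretches 15.4% also occur elsewhere, most often in *Gm13461*, and how many of its reads this touched was not tested. *Xpo5*, exportin-5 itself, was at 71.1 ± 2.15 and 69.5 ± 1.34 CPM (edgeR adjusted p = 0.866), and *Dgcr8*, the RNA-binding partner of Drosha, at 24.4 ± 1.38 and 27.3 ± 1.80 CPM in C75S and WT (0.402; SD, n = 3 each).

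Chaperones load the small RNA into Argonaute, and in this list 0 of 12 rose and 1 fell, beside 3.11% called over all genes. *Fkbp5*, an Hsp90 co-chaperone and a known glucocorticoid target, was at 268, 272 and 300 CPM in C75S and 296, 353 and 358 CPM in WT. WT replicate 1 overlapped C75S replicate 3, and the log2 fold change was -0.26 (SE 0.07, edgeR adjusted p = 0.034). This call was lost, with an adjusted p of 0.158 or 0.113, when replicate 1 or 2 of C75S was left out, and with 0.18 or 0.165 when replicate 2 or 3 of WT was. The log2 fold change in these 4 fits was -0.242 to -0.214.

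No gene was called among the GW182 scaffolds and RISC cofactors (18 of 19 tested), the deadenylation genes (17), the decapping genes (12) or the genes of precursor editing, tailing and microRNA turnover (10 of 12 tested). At an unadjusted p under 0.05 they held 1, 4, 1 and 2 genes, where 13.4% of all tested genes passed. The GW182 proteins connect Argonaute to the deadenylases. *Tnrc6a* was at 126 ± 3.13 CPM in C75S against 133 ± 3.57 CPM in WT, *Tnrc6b* at 78.0 ± 3.18 and 79.6 ± 3.79 CPM and *Tnrc6c* at 45.4 ± 2.96 and 47.9 ± 0.59 CPM (SD, n = 3 each; edgeR adjusted p of 0.547, 0.894 and 0.683). *Wtip*, a LIM-domain protein of the same list, was at 0.894 ± 0.373 and 1.67 ± 0.12 CPM (adjusted p = 0.218).

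The deadenylase genes with the smallest p-values were *Cnot7*, a catalytic subunit of the CCR4-NOT complex, and *Cnot1*, its scaffold. *Cnot7* was at 69.4 ± 4.37 CPM in C75S against 78.5 ± 3.45 CPM in WT, and *Cnot1* at 175 ± 4.6 and 191 ± 1.77 CPM (SD, n = 3 each; edgeR adjusted p of 0.121 and 0.174). In both genes every C75S library was under every WT library. A separation in either direction was seen in 18% of all tested genes. In the decapping list *Lsm1* was at 25.2 ± 2.02 and 20.9 ± 0.928 CPM (adjusted p = 0.114) and *Dcp1b* at 6.38 ± 1.46 and 7.51 ± 0.301 CPM (0.553).

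*Adar*, the RNA editing enzyme, was at 48.4 ± 3.15 CPM in C75S against 53.4 ± 2.07 CPM in WT, and *Dis3l2*, an exonuclease of tailed RNAs, at 25.6 ± 1.68 and 21.9 ± 0.815 CPM (SD, n = 3 each; edgeR adjusted p of 0.314 and 0.184). *Lin28a* and *Lin28b*, which block maturation of let-7 in embryonic cells, had 0 counts in all 6 libraries, as had *Trim71*. Counts of 0 allow up to 0.142 to 0.172 CPM in a library. Of 5 PIWI pathway genes *Piwil2* alone could be tested, at 4 to 16 counts per library (edgeR adjusted p = 0.638), and *Piwil1*, *Henmt1* and *Mov10l1* were at 0.

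**Figure D5:**
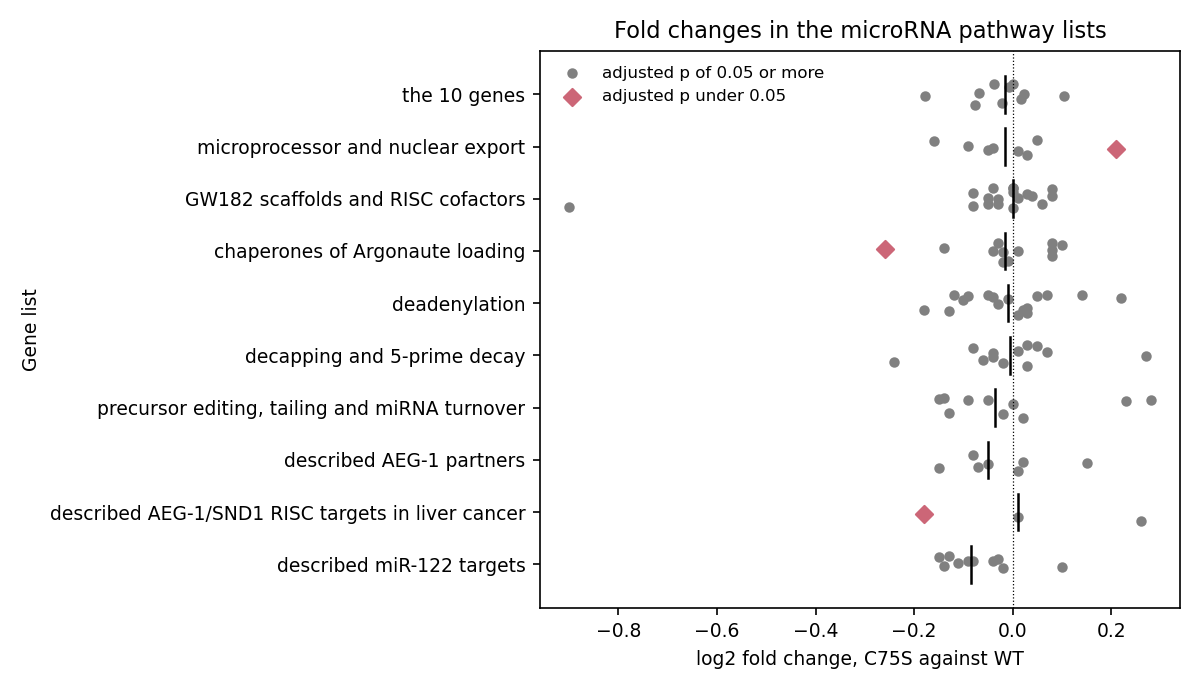
Log2 fold change of C75S against WT of single genes in the 10 genes and in 9 pathway lists, with a line at each median and diamonds for an adjusted p under 0.05. The diamonds are *Ran*, *Fkbp5* and *Cdkn1a*, and the point at the far left is *Wtip*.

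Of 7 described partners of AEG-1 other than SND1, 0 were called, with 2 at an unadjusted p under 0.05. That level was passed by 13.4% of all tested genes. *Zbtb16*, the transcriptional repressor PLZF, was at 150 ± 4.88 CPM in C75S against 166 ± 7.90 CPM in WT. *Bccip*, a binding partner of BRCA2 and p21, was at 60.4 ± 1.73 and 54.3 ± 2.09 CPM (SD, n = 3 each; edgeR adjusted p of 0.126 and 0.205). Neither gene's genotypes overlapped, as in 18% of all tested genes.

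Work on liver cancer cells has described messages that include p21, p57, SPRY2 and TGFBR2 as repressed through AEG-1 and SND1 in RISC. Of the 5 mouse genes listed 3 could be tested, of which 0 rose and 1 fell, with 3.11% called over all genes. *Cdkn1a*, encoding the cell cycle inhibitor p21, was at 322, 328 and 345 CPM in C75S and 393, 375 and 359 CPM in WT, without overlap (log2 fold change -0.18, SE 0.05). Its edgeR adjusted p was 0.0494, just under the threshold. The call was lost in 7 of 15 alternative fits: with RLE (0.05) or library-size scaling (0.0564), with counting without strand (0.0504), and on leaving out replicate 1 (0.177) or 2 (0.164) of C75S or replicate 1 or 2 of WT (0.177 each). In these 7 fits the log2 fold change was -0.181 to -0.145.

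*Tgfbr2*, a receptor for TGF-beta, was at 37.6, 32.0 and 33.0 CPM in C75S and 28.4, 28.5 and 28.4 CPM in WT, with a log2 fold change of 0.26 (SE 0.08) that did not pass (edgeR adjusted p = 0.0659). *Cdkn1c* and *Spry2* were too low to test, at 1 to 10 and 0 to 3 counts per library.

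Of 10 described targets of miR-122, the most abundant microRNA of hepatocytes, 0 were called by edgeR's quasi-likelihood test, with 0 at an unadjusted p under 0.05. Their median log2 fold change was -0.087, with 1 above and 9 below 0, and their median standard error was 0.088. For all tested genes the median log2 fold change was -0.003, with 6259 above and 6482 below 0. *Tgfbr1*, another TGF-beta receptor, was at 74.0 ± 4.84 CPM in C75S against 80.1 ± 2.53 CPM in WT, and *P4ha1*, a collagen prolyl hydroxylase, at 21.6 ± 2.26 and 23.7 ± 2.44 CPM (SD, n = 3 each; edgeR adjusted p of 0.396 and 0.579). Mature microRNAs were not analysed here.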

How the data were processed

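RNA of 6 hepatocyte libraries (3 C75S, 3 WT) was sequenced on an Illumina HiSeq3000 after TruSeq library preparation, per the labels' protocols. The authors deposited raw counts for each Ensembl gene, without strand and by strand. The submitters' processing notes name Trim Galore 0.6.6, STAR 2.7.9a, edgeR 3.36.0 and the builds mm10 and GRCm38, with no settings. The annotation release is not given in the sources used here, and 55227 of 55487 gene rows matched GENCODE M21. Reverse-strand counts were used, and unmapped, multimapping, unassigned and ambiguous reads were dropped. Multimapping reads were 18.0% to 18.5% of each library, ambiguous ones 0.891% to 0.926%.

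Genes were filtered with filterByExpr (minimum count 10, total 15), scaled by TMM and, in edgeR 4.0.16 under R 4.3.3, tested by a robust quasi-likelihood F-test of genotype, two-sided and with no other term, with Benjamini-Hochberg adjustment over 12741 genes. Ratios and their 95% intervals come from that fit. CPM used the TMM-scaled library sizes, and RPKM is CPM per kilobase of merged exons. Shares and ratios were compared by exact permutation (scipy 1.17.1). Pairs of libraries of a genotype differed by more than counting noise (chi-square per degree of freedom 4.05 to 8.99). Alternatives were other scalings, DESeq2 1.42.0, limma-voom (limma 3.58.1), other filters, unstranded counts, a replicate block, other lengths and windows, and leaving out each library. The longest-transcript order of levels was added after seeing the data.

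Some items, a sequence among them, are not reported here. The members and lists were chosen with earlier results of these data known. Of each list the text names up to 4 called genes, or else the 2 with the smallest p, and further *Mtdh*'s neighbours and the 3 genes most like it. *Xpo5*, *Dgcr8*, *Tnrc6b*, *Tnrc6c*, *Tgfbr2*, *Chrac1*, *Lrrc4*, the genes at or near 0 counts and the cell type markers fall outside that rule and were picked with their values known.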

Additional observations from a re-analysis of the deposited data

How the results depend on the processing

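Over 15 alternative fits, 0 of the 10 genes were called in any, with a smallest adjusted p-value of 0.487. Of 150 values, 16 changed sign and 134 did not. *Snd1* was at -0.003 with no filter and -0.000 when genes averaging 1 CPM or more were tested, and *Dicer1* at 0.005 with library-size scaling, which moved the median of all genes to 0.009. Leaving out each library in turn, log2 fold changes ranged from -0.022 to 0.050 for *Mtdh*, -0.024 to 0.043 for *Snd1*, -0.052 to 0.008 for *Ago1*, -0.038 to 0.096 for *Ago3*, -0.039 to 0.022 for *Dicer1* and -0.158 to 0.030 for *Prkra*. *Ago2* (-0.058 to -0.005), *Ago4* (0.058 to 0.193), *Tarbp2* (-0.293 to -0.077) and *Drosha* (-0.136 to -0.022) did not change sign. The differences in Argonaute share ranged, in percentage points, from -0.811 to 0.545 for *Ago1*, -1.588 to 0.522 for *Ago2*, -0.086 to 0.574 for *Ago3* and 0.219 (without C75S replicate 1) to 0.671 (without C75S replicate 2) for *Ago4*, where the difference with all libraries was 0.397, and that of the log2 *Mtdh* to *Snd1* ratio from -0.062 to 0.071.

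Leaving out a library gave 201 to 355 called genes in place of 396 (253 without C75S replicate 1, 201 without WT replicate 2, 246 without WT replicate 3) and 0 to 2 called list genes in place of 3. There were 0 without C75S replicate 1 or WT replicate 2, and 1 without C75S replicate 2 or WT replicate 3. With no filter, 573 genes were called, 290 higher and 283 lower, against 222 and 174. Within 5 Mb of *Mtdh* 1 to 2 genes were called without a library (2 without C75S replicate 2), within 2 Mb 0 and within 10 Mb 4. Of other named genes, *Tspyl5* was at 0.110 with limma-voom and 0.031 with the replicate block and ranged from -0.456 to 0.518 without a library, *Atad1* from -0.038 to 0.028, *H2afy* from -0.048 to 0.038 and *Tnrc6b* from -0.053 to 0.011. The cause of these changes was not tested.

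Replicate numbers did not pair the libraries: deviations of same-numbered libraries correlated at 0.0169, -0.0404 and 0.0254, and 1 of 3 C75S libraries correlated best with its own number. With a replicate block 480 genes were called, and 0 of the 10 genes and 3 list genes, as without it. Counts were lowest for *Ago4* and *Tarbp2*, at 105 to 204 per library. Only *Tarbp2* of these varied by more than counting alone gives (13.6% against 7.89%).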
